A study of Mus musculus with 16 samples.

Results

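The genes of the epithelial to mesenchymal transition (EMT) described here are Cdh1, Ocln, Cdh2, Vim, Fn1, Snai1, Snai2, Zeb1, Zeb2 and Twist1. They were taken by gene symbol as 10 of the 40840 genes in the count table, and their RNA was followed in mouse p53-/-; Myc hepatoblasts exposed to the multi-kinase inhibitor sorafenib. EMT is the programme by which epithelial cells give up cell-cell junctions and acquire the motile, matrix-producing form of mesenchymal cells. Transcription factors of the SNAIL, ZEB and TWIST families drive it by repressing junction genes such as Cdh1, and the cell then makes more N-cadherin, vimentin and fibronectin. In the liver the programme is studied in hepatocellular carcinoma (HCC), where mesenchymal features accompany invasion and drug tolerance.

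Every library came from the same cell line, mouse hepatoblasts that lack p53 and overexpress Myc and that the labels give as HCC cells. The 4 groups were DMSO for 48 hours, sorafenib for 48 hours, DMSO for 7 days and sorafenib for 7 days, with sorafenib at 8.5 µM and 4 libraries in each group. DMSO was the vehicle, so all controls carried the same genotype as the treated cells. A single line was used, and the labels do not say whether the replicates were separate cultures. Each p-value therefore sets a group difference against the spread between these libraries, and does not extend to other lines.

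The 16 libraries held 16586254 to 30828427 counts each (median 26360677). All of them held reads of Trp53 (1268 to 4799 counts) and Myc (4226 to 17797 counts), and a count over the whole gene does not show whether an exon is missing. Of the 7 hepatoblast markers, Dlk1 and Gpc3 were abundant (3488 to 38122 and 3698 to 21521 counts), Krt8 and Krt18 were low, Afp reached at most 14 counts, Alb at most 1 count, and Hnf4a had 0 counts in all 16 libraries. Of the 8 fibroblast or stellate cell markers, 7 were detected, with Col1a1 at 39863 to 81817 counts, and Lrat was at 0 in all libraries. Defining markers of leukocytes (Ptprc, at most 4 counts, and Adgre1, 0 counts) and of endothelial cells (Cdh5, at most 2 counts) were at or near 0, whereas other genes of these marker lists were detected in every library (Cd68 at 47 to 91 counts, Csf1r at 3 to 95 and Kdr at 26 to 270). The label of a hepatic epithelial precursor is therefore matched by some markers and not by others, and the cells are called by their label below. In the library of sorafenib 48 hours replicate 2, counts dropped to 0.609 of the level in its group from the start of chromosome 15 onwards, and no other library had a step above 0.09 on the log2 scale. Snai2, on chromosome 16, and Cdh2 and Zeb1, on chromosome 18, lie in the lowered stretch, so their values are given with and without that library. Of the EMT genes outside the stretch, all but Twist1 had their highest normalized count of the group in that library. Without it the 48 hour log2 fold changes of Vim, Fn1 and Zeb2 were 1.09, 1.32 and 2.82. With all libraries they were 1.12, 1.34 and 2.83. DMSO 7 days replicate 4 also stood apart from its group, with a chi-square per gene of 41.4 to 55.0 against the other 3 libraries, which had 1.78 to 2.79 among themselves. With the 10 genes that contributed most left out, led by AY036118 and the unnamed locus LOC118568312 and none of them an EMT gene, its values were 1.71 to 2.23. In DMSO at 48 hours, replicates 1 and 4 differed from 2 and 3 by 14.4 to 32.7, and by 1.82 to 3.70 with such genes left out. For sorafenib 48 hours replicate 2 the values were 27.0 to 30.7, and 24.3 to 28.3 with 10 genes left out.

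Values below are normalized counts, that is counts divided by the library's relative size after TMM scaling, given library by library or as mean ± SD over 4 libraries. A gene was called when edgeR's quasi-likelihood test gave a Benjamini-Hochberg adjusted p (FDR) under 0.05 over all 20444 tested genes. Log2 fold changes carry a standard error (SE), which edgeR does not report. It was derived as the absolute log2 fold change divided by the square root of the test's F statistic. All 10 genes passed the filter of at least 10 counts in total. The drug moved much of the transcriptome. At 48 hours 54.6% of all tested genes were called, against 8 of the 10 EMT genes, and at 7 days 56.8%, against 9 of the 10. The counts of called EMT genes are to be read against a background in which most genes were called. Fn1 and Zeb2 share exon sequence with the antisense genes Apol7d and Zeb2os (140 and 148 counts over all libraries), Vim, Snai1, Zeb1 and Ocln with other antisense annotations, and the strand setting of the counting is not given in the sources used here.

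At 48 hours 6 of the EMT genes rose with sorafenib (Cdh2, Vim, Fn1, Snai2, Zeb1 and Zeb2), 2 fell (Ocln and Twist1) and 2 did not pass the test (Cdh1 and Snai1). At 7 days Cdh1 also rose, so that 7 genes were higher and 2 lower, and Snai1 again did not pass. Without sorafenib 48 hours replicate 2 the counts were the same, 6 higher and 2 lower at 48 hours and 7 and 2 at 7 days. Without DMSO 7 days replicate 4 they were 6 and 2 at 48 hours and 6 and 2 at 7 days, where Zeb1 was no longer called. Among all tested genes 26.9% were called higher and 27.7% lower at 48 hours, and 28.9% and 27.9% at 7 days. The median log2 fold change of the 10 genes was 0.40 at 48 hours and 0.44 at 7 days, beside -0.05 and 0.02 over all tested genes. In 6 of the 10 at 48 hours and 9 of the 10 at 7 days the treated and control libraries did not overlap, beside 48.0% and 56.8% of all tested genes. The drug effect itself differed between the time points for 6 of the 10 genes, where 36.8% of all tested genes had such an interaction. The log2 fold change was higher at 7 days for Cdh1 and Snai2 and lower for Vim, Fn1, Zeb2 and Twist1, beside 15.5% and 21.3% of all tested genes.

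**Figure D1:**
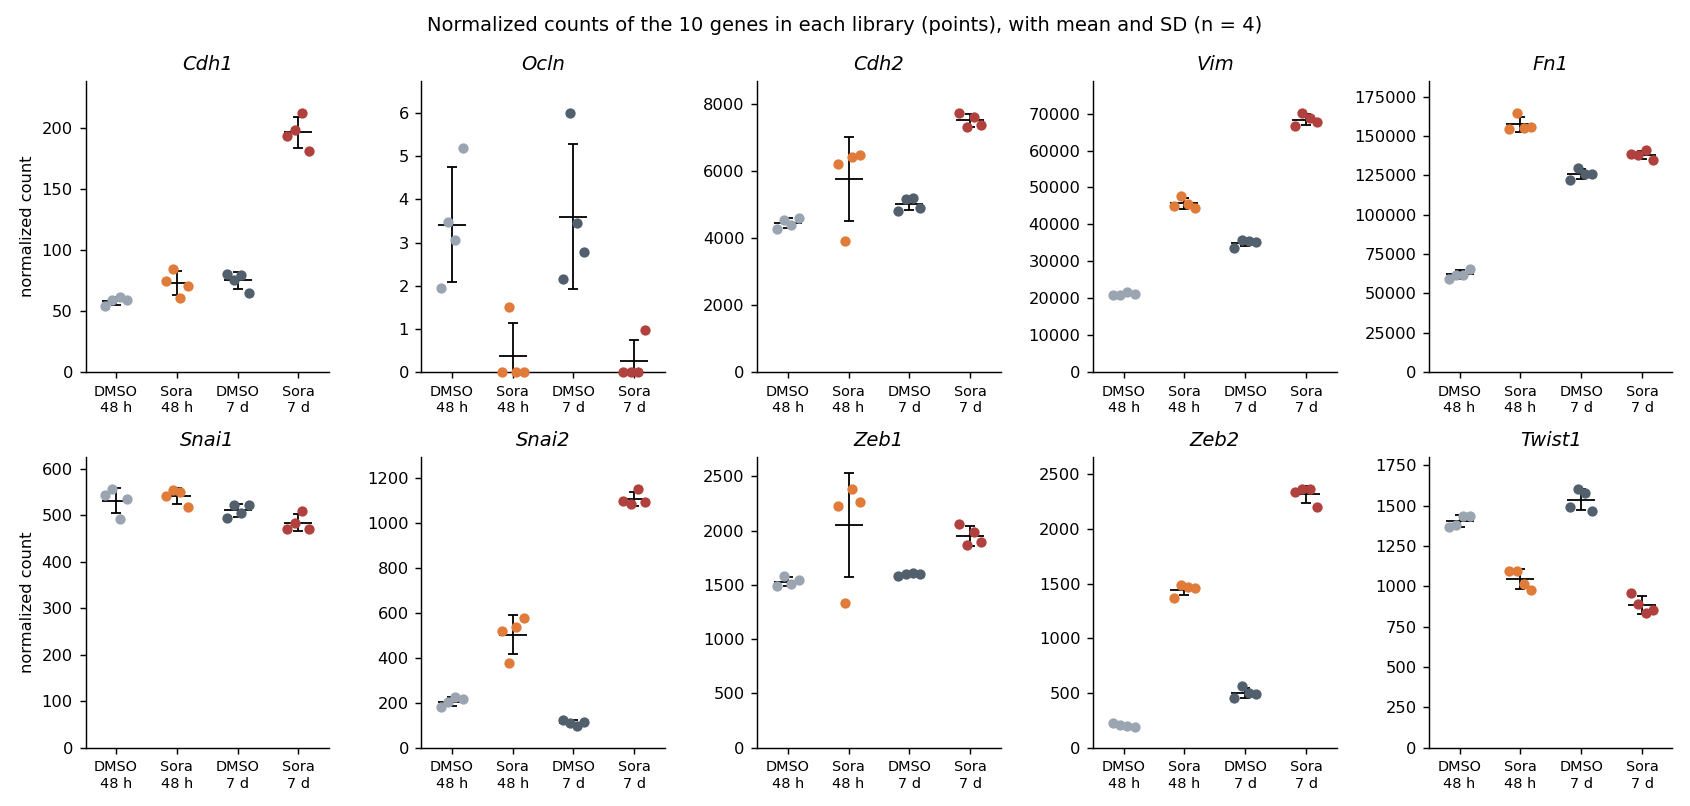
Normalized counts of the 10 EMT genes in each of the 16 libraries (points), with the mean and SD of each group of 4 (black, drawn down to 0). Cdh1 stands apart in sorafenib at 7 days (181 to 212), Vim and Zeb2 are higher in both sorafenib groups than in either DMSO group, Twist1 is lower in both, and 1 library of sorafenib at 48 hours lies low for Cdh2 (3904), Snai2 (377) and Zeb1 (1335).

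The epithelial side is represented by E-cadherin and occludin. Cdh1 (chromosome 8, 107329941 to 107396880, plus strand, GRCm39) encodes E-cadherin, the adhesion molecule of epithelial adherens junctions whose loss is the textbook mark of EMT. Its normalized counts were 53.8, 59.0, 61.3 and 58.8 in DMSO at 48 hours and 74.4, 84.7, 60.9 and 70.4 in sorafenib. In DMSO at 7 days they were 80.0, 75.4, 79.4 and 64.9, and in sorafenib 193, 198, 212 and 181. The 48 hour groups overlapped in 1 treated library, while every treated library at 7 days lay far above every control. Cdh1 thus rose 2.62-fold at 7 days (log2 fold change 1.39 ± 0.093 SE, edgeR FDR 7.51e-11). At 48 hours the log2 fold change was 0.30 ± 0.12 with an edgeR FDR of 0.0508, just above the threshold. Without sorafenib 48 hours replicate 2 it was 0.22 (edgeR FDR 0.197), and without replicate 3 it was called (edgeR FDR 0.0288). The drug effect on Cdh1 was larger at 7 days than at 48 hours by 1.09 on the log2 scale (edgeR FDR 7.9e-06). The level of this gene remained low throughout, with 53 to 244 counts per library, and per kilobase of exon it lay above 40.9% of the tested genes on average.

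Ocln (chromosome 13, 100630334 to 100689535, minus strand), the gene of the tight junction protein occludin, was close to undetected. The DMSO libraries held 2 to 6 counts each at 48 hours and 2 to 7 at 7 days, and the sorafenib libraries 0 or 1. Pooled over 4 libraries, 15 counts stood against 1 at 48 hours and 16 against 1 at 7 days. No treated library reached the lowest control at either time. The ratio of DMSO to sorafenib, after scaling for library size, was 11.5 at 48 hours (exact 95% interval 1.77 to 484) and 15.8 at 7 days (2.46 to 663), intervals that cover counting error only. Ocln was called lower at both times (edgeR FDR 0.00739 and 0.00206), and at this depth the size of the fall could not be fixed more closely. The 2 epithelial members therefore moved in opposite directions at 7 days.

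EMT factors of the SNAIL and ZEB families are known to bind E-boxes, short DNA elements of the form CANNTG, and often CACCTG, which reads CAGGTG on the other strand. Promoters of 5 of the 10 genes (Vim, Zeb2, Snai1, Twist1 and Ocln) were in the RefSeq set used, which is on GRCm38.p6 and not on the build of the counts. Of their 9 windows of 250 bases before a transcription start, 2 held CACCTG or CAGGTG, which 17.2% of all 32851 windows held, and CANNTG in any form was in 66.2%. Ocln held the element at positions -213 and -68 before one of its starts (chr13:100552696-100552721 and chr13:100552551-100552576, minus strand). They are shown because Ocln is the member with the lowest counts after treatment, with the E-box in capitals and 10 bases on either side.
Ocln -213: atcggagtttCAGGTGaatgggtcac
Ocln -68: aggggctcggCAGGTGggtcccagcg
Such a match describes the letters of the window and does not show binding.

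Cdh2 (chromosome 18, 16700793 to 16942381, minus strand) encodes N-cadherin, which takes the place of E-cadherin in the cadherin switch of EMT. At 48 hours its normalized counts were 4269, 4545, 4386 and 4591 in DMSO and 6216, 3904, 6427 and 6488 in sorafenib. At 7 days they were 4819, 5164, 5194 and 4885 in DMSO and 7719, 7326, 7614 and 7381 in sorafenib. The only treated library below the controls at 48 hours was replicate 2, the library with lowered counts in this stretch of the genome. With all libraries Cdh2 rose 1.30-fold at 48 hours (log2 fold change 0.37 ± 0.10, edgeR FDR 0.00362) and 1.5-fold at 7 days (0.58 ± 0.10, edgeR FDR 4.72e-05). Fitted on the 8 libraries of 48 hours alone, the 48 hour value was not called (edgeR FDR 0.0674). Without replicate 2 the 48 hour value was 0.52 ± 0.029, all treated libraries then lay above all controls, and the 7 day value was the same to 2 decimals. The difference between the 2 drug effects did not pass the test (0.21 ± 0.14, edgeR FDR 0.285, and 0.06, edgeR FDR 0.229, without that library).

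N-cadherin RNA was far more abundant than E-cadherin RNA in every group. Per kilobase of annotated exon, Cdh2 exceeded Cdh1 by 41.0-fold ± 1.84 in DMSO at 48 hours and 36.0-fold ± 3.36 in DMSO at 7 days (SD, n = 4). In sorafenib the ratio was 43.8 ± 13.6 at 48 hours, or 50.2 ± 5.91 over the 3 libraries other than replicate 2, and 20.5 ± 1.23 at 7 days. Cdh2 thus dominated in the DMSO cells already, and the lowest ratio was found after 7 days of sorafenib, when both cadherins were called higher and Cdh1 by the larger factor. By length of the longest transcript the ratio was 69.6 in DMSO at 48 hours, 61.2 in DMSO at 7 days, 74.4 in sorafenib at 48 hours (85.2 without replicate 2) and 34.9 in sorafenib at 7 days.

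Vim (chromosome 2, 13578738 to 13587639, plus strand) encodes vimentin, the intermediate filament protein of mesenchymal cells. It had 20886, 20877, 21572 and 21022 normalized counts in DMSO at 48 hours and 45071, 47763, 45516 and 44493 in sorafenib. At 7 days it had 33713, 35784, 35524 and 35326 in DMSO and 66576, 70085, 68883 and 67785 in sorafenib. The 4 groups were separate from each other, with gaps wider than the spread within any of them. Vim rose 2.17-fold at 48 hours (log2 fold change 1.12 ± 0.029, edgeR FDR 2.01e-17) and 1.95-fold at 7 days (0.96 ± 0.028, edgeR FDR 1.64e-16). The drug effect was smaller at 7 days, by a difference of -0.15 on the log2 scale (edgeR FDR 0.00418), a call that was lost with total-count scaling and with a stricter filter. Among all tested genes with a length, Vim per kilobase lay above 99.9%.

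The Vim promoter window is printed because this gene had the highest level per kilobase of the 10 genes after 7 days of treatment and its window held neither E-box form searched (chr2:13574061-13574310, plus strand, GRCm38.p6, in lower case throughout as nothing was found to mark).
Vim: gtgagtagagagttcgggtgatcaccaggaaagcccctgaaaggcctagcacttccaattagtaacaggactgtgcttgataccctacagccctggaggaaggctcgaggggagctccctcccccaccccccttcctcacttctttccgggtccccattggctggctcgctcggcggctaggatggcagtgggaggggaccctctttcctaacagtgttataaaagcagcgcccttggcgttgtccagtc
The absence of these letters concerns this window alone.

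Fn1 (chromosome 1, 71624673 to 71692419, minus strand) encodes fibronectin, the matrix glycoprotein that mesenchymal cells secrete. Its normalized counts at 48 hours were 58973, 61804, 62019 and 65317 in DMSO and 154694, 164484, 155277 and 155818 in sorafenib. At 7 days they were 122181, 129491, 125829 and 126169.9 in DMSO and 138614, 138179, 141286 and 135007 in sorafenib. Treated libraries lay above controls at both times, but at 7 days the control level itself had moved up to near the treated level. Fn1 rose 2.54-fold at 48 hours (log2 fold change 1.34 ± 0.030, edgeR FDR 3.2e-18) and only 1.10-fold at 7 days (0.14 ± 0.030, edgeR FDR 0.000643). The difference between the drug effects, -1.21 on the log2 scale, was the lowest of the 10 genes (edgeR FDR 2.32e-14). In DMSO alone Fn1 rose 2.03-fold from 48 hours to 7 days (edgeR FDR 1.56e-15), whereas in sorafenib it fell by 0.19 on the log2 scale (edgeR FDR 3.62e-05). Time in culture and any other difference between the 2 DMSO groups cannot be told apart.

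**Figure D2:**
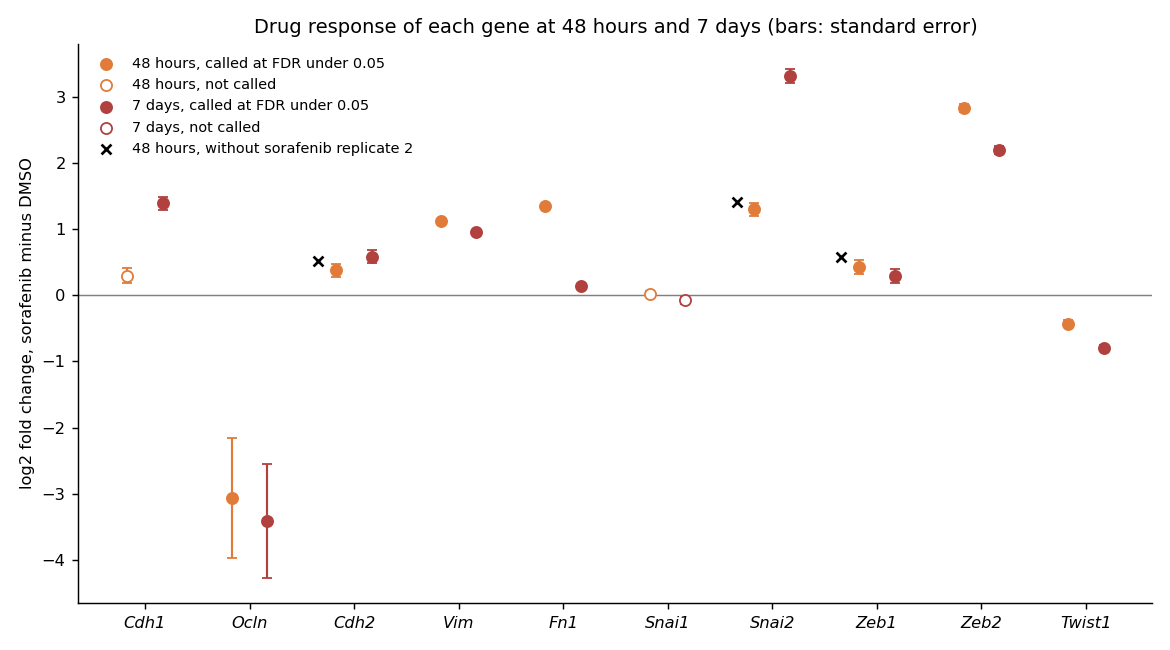
Log2 fold change of sorafenib against DMSO for each EMT gene at 48 hours (orange) and 7 days (red) with its standard error, filled where the gene was called and open where not, and black crosses for the 48 hour value of Cdh2, Snai2 and Zeb1 without sorafenib replicate 2. Snai2 has the highest 7 day value (3.31), Zeb2 the highest 48 hour value (2.83), Fn1 drops from 1.34 to 0.14, and Snai1 stays at 0.02 and -0.08.

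The transcription factors did not move as a block. Snai1 (chromosome 2, 167380113 to 167384734, plus strand) encodes SNAIL, a zinc finger repressor of Cdh1. Its normalized counts were 543, 556, 492 and 534 in DMSO and 542, 555, 549 and 517 in sorafenib at 48 hours. At 7 days they were 494, 522, 504 and 521 in DMSO and 471, 482, 509.9 and 471 in sorafenib. The groups overlapped at both times, and the log2 fold changes were 0.02 ± 0.049 (edgeR FDR 0.741) and -0.08 ± 0.048 (edgeR FDR 0.19). Snai1 was the only one of the 10 genes called at neither time point.

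The Snai1 window (chr2:167537945-167538194, plus strand, GRCm38.p6) is shown since it was the other one with a CACCTG element, at position -126 (chr2:167538059-167538084), in capitals.
Snai1: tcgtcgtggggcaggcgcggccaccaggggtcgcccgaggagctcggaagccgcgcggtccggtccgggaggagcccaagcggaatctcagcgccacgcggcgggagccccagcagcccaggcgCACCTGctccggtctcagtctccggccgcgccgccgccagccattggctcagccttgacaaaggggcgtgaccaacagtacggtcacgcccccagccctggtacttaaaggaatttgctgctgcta
The rest of the window held no other CANNTG.

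Snai2 (chromosome 16, 14523425 to 14527252, plus strand) encodes SLUG, the close relative of SNAIL. It had 181, 201, 224 and 215 normalized counts in DMSO at 48 hours and 519, 377, 536 and 578 in sorafenib. At 7 days it had 121, 111, 98.4 and 115 in DMSO and 1097, 1084, 1149 and 1090.0 in sorafenib. Treated and control libraries were separate at both times, the lowest treated value at 48 hours being that of replicate 2. Snai2 rose 2.47-fold at 48 hours (log2 fold change 1.30 ± 0.10, edgeR FDR 6.31e-10, and 1.41 without replicate 2) and 9.94-fold at 7 days (3.31 ± 0.10, edgeR FDR 3.03e-16). The drug effect was larger at 7 days by 2.01 on the log2 scale (edgeR FDR 1.17e-09, and 1.91 without replicate 2). Snai2 was the only one of the 10 genes to fall with time in DMSO, with a log2 fold change of -0.89 (edgeR FDR 2.85e-06), while it rose 2.18-fold in sorafenib over the same interval (edgeR FDR 2.04e-09).

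Zeb1 (chromosome 18, 5591851 to 5775467, plus strand) and Zeb2 (chromosome 2, 44873644 to 45007464, minus strand) encode related zinc finger and homeodomain repressors of epithelial genes. Zeb1 had 1494, 1579.8, 1509 and 1542 normalized counts in DMSO at 48 hours and 2229.6, 1335, 2383 and 2262 in sorafenib. At 7 days it had 1579.7, 1600.2, 1609.9 and 1597 in DMSO and 2065, 1864, 1989 and 1895 in sorafenib. Only replicate 2 of sorafenib at 48 hours lay below its controls. With all libraries Zeb1 rose 1.35-fold at 48 hours (log2 fold change 0.43 ± 0.11, edgeR FDR 0.00229) and 1.22-fold at 7 days (0.29 ± 0.11, edgeR FDR 0.0282). The 7 day call was lost without DMSO 7 days replicate 1, 2 or 4 and without sorafenib 7 days replicate 1 or 3 (edgeR FDR up to 0.0725). The 48 hour call was lost in a fit on the 8 libraries of that time alone (edgeR FDR 0.0542). Without sorafenib 48 hours replicate 2 the 48 hour value was 0.58 ± 0.035 and all treated libraries were above all controls. The 7 day value in that fit was 0.29 ± 0.032 (edgeR FDR 5.33e-11). The smaller effect at 7 days, a difference of -0.14 with all libraries (edgeR FDR 0.531), was then -0.30 and passed the test (edgeR FDR 9.02e-07).

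Zeb2 had the largest log2 fold change of the 10 genes in the upward direction at 48 hours. It had 223, 206, 196 and 192 normalized counts in DMSO at 48 hours and 1369, 1489, 1468 and 1464 in sorafenib. At 7 days it had 453, 565, 504 and 493 in DMSO and 2343, 2364, 2367 and 2199.6 in sorafenib. All 4 groups were separate. Zeb2 rose 7.10-fold at 48 hours (log2 fold change 2.83 ± 0.063, edgeR FDR 2.63e-18) and 4.59-fold at 7 days (2.20 ± 0.056, edgeR FDR 1.52e-17). The drug effect was smaller at 7 days, by a difference of -0.63 on the log2 scale (edgeR FDR 5.68e-06), while the DMSO level had itself risen over this interval 2.48-fold (edgeR FDR 2.9e-12). Per kilobase of exon the ratio of Zeb1 to Zeb2 was 12.6 ± 0.960 in DMSO and 2.37 ± 0.589 in sorafenib at 48 hours (2.67 ± 0.0777 over the other 3 libraries), and 5.32 ± 0.451 and 1.41 ± 0.0667 at 7 days.

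Twist1 (chromosome 12, 34007645 to 34009828, plus strand) encodes a basic helix-loop-helix activator of mesenchymal genes and was the only factor to fall. Its normalized counts were 1366, 1378, 1434 and 1434 in DMSO and 1097, 1095, 1012 and 978 in sorafenib at 48 hours. At 7 days they were 1494, 1603, 1579.7 and 1467 in DMSO and 958, 893, 835 and 853 in sorafenib. Every treated library lay below every control at both times. Twist1 fell by 0.43 ± 0.050 on the log2 scale at 48 hours (edgeR FDR 2.98e-07) and fell by 0.80 ± 0.049 at 7 days (edgeR FDR 1.95e-11). The log2 fold change was lower at 7 days, by a difference of -0.37 (edgeR FDR 0.00025).

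Set side by side per kilobase of exon, the 5 factors changed their proportions. Twist1 made up 61.2% ± 1.07 of their summed level in DMSO at 48 hours and 64.9% ± 1.05 in DMSO at 7 days, but 45.3% ± 3.32 and 34.4% ± 1.67 in sorafenib (SD, n = 4). Snai2 went the other way, from 6.39% ± 0.514 to 15.5% ± 2.41 at 48 hours and from 3.37% ± 0.356 to 30.7% ± 0.909 at 7 days. The share of Zeb2 was 0.648% ± 0.0536 in DMSO and 4.57% ± 0.312 in sorafenib at 48 hours, and 1.55% ± 0.103 and 6.55% ± 0.158 at 7 days. Zeb1 kept between 8.10% and 10.7% in all groups, and Snai1 between 19.2% and 23.9%. Over the 3 libraries of sorafenib at 48 hours other than replicate 2, the shares of Twist1, Snai2 and Zeb1 were 43.8%, 16.6% and 11.8%. Lengths of the longest transcript gave Zeb1 and Zeb2 a larger part (17.7% and 13.4% in sorafenib at 7 days) and left Twist1 as the largest in each group. These shares were not tested, as a share falls when another rises.

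**Figure D3:**
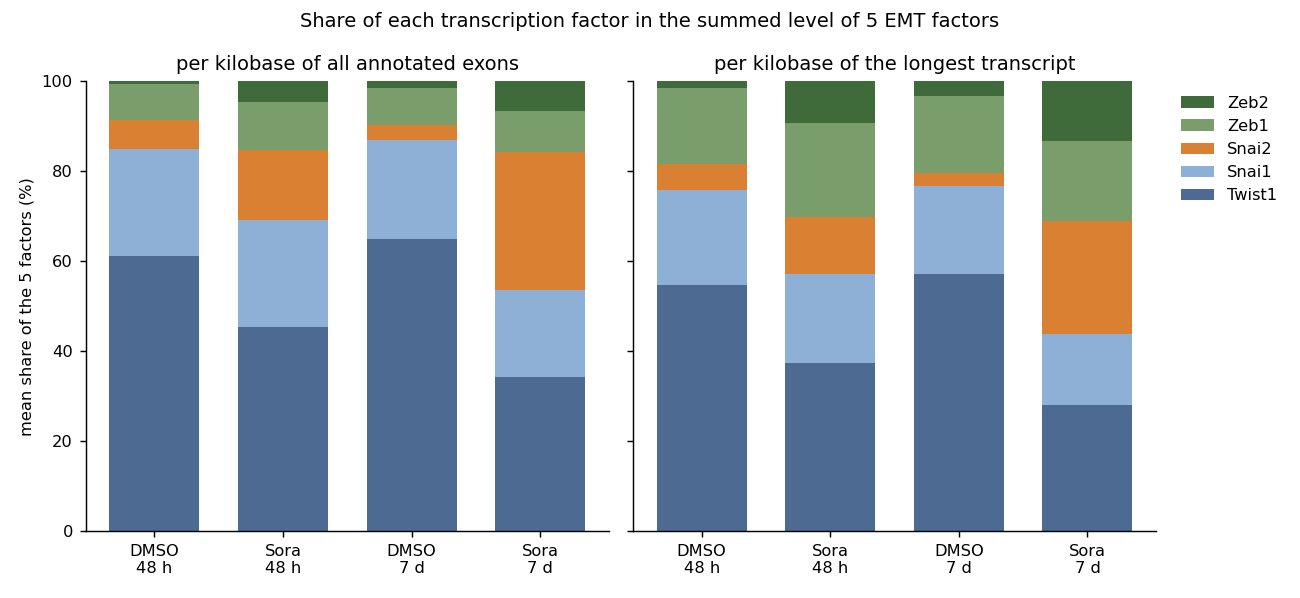
Mean share of each factor (stacked bars, in percent) in the summed level of Twist1, Snai1, Snai2, Zeb1 and Zeb2 per kilobase, by all annotated exons (left) and by the longest transcript (right), in the 4 groups. Twist1 shrinks from 64.9% to 34.4% and Snai2 grows from 3.37% to 30.7% between DMSO and sorafenib at 7 days on the left scale.

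The genes also differed between the 2 times without the drug. From 48 hours to 7 days in DMSO 6 of the 10 were called, beside 49.4% of all tested genes, of which Cdh1, Vim, Fn1, Zeb2 and Twist1 rose and Snai2 fell (23.9% of all tested genes rose and 25.5% fell). The libraries of the 2 times did not overlap for 7 of the 10, beside 50.8% of all tested genes. The rises ranged from 0.13 for Twist1 (edgeR FDR 0.0275), to 1.31 for Zeb2 on the log2 scale. The call of Twist1 was lost without DMSO 48 hours replicate 1 or 2 and without DMSO 7 days replicate 2 or 3 (edgeR FDR up to 0.0936). In sorafenib 8 of the 10 were called over the same interval, beside 39.7% of all tested genes (17.5% higher and 22.3% lower), and 8 did not overlap, beside 35.8%. Cdh1, Cdh2, Vim, Snai2 and Zeb2 rose, with Cdh1 highest at 1.46 (edgeR FDR 3.65e-10), and Fn1, Snai1 and Twist1 fell, with Twist1 lowest at -0.24 (edgeR FDR 0.000751). The fall of Snai1, -0.16 (edgeR FDR 0.015), was lost in 6 of the other settings, among them without sorafenib 48 hours replicate 1 or 3 (edgeR FDR up to 0.0732). Without sorafenib 48 hours replicate 2 Zeb1 was called lower over this interval as well (-0.24, edgeR FDR 1.04e-07), and Cdh2 was called higher in DMSO (0.17, edgeR FDR 3.05e-07).

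The order of the groups differed from gene to gene. Vim, Zeb2 and Cdh2 ran from DMSO at 48 hours through DMSO at 7 days and sorafenib at 48 hours to sorafenib at 7 days, and only the middle pair of Cdh2 overlapped, in replicate 2. Fn1 was highest in sorafenib at 48 hours instead. Cdh1 had 3 groups that overlapped with their neighbours in the order and 1, sorafenib at 7 days, above them all. Snai1 groups overlapped at every step of the order.

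The genes whose log2 CPM followed Cdh1, Vim and Fn1 most closely over the 16 libraries were picked by Pearson's r among the 10646 genes averaging 100 normalized counts or more. All points share the 4 groups, so r mostly reflects group means and is given as a description. For Cdh1 they were Klf2 (r = 0.986), a Krüppel-like transcription factor, Epb41l1 (0.973), a membrane cytoskeleton protein, and Gm19410 (0.972). Klf2 had 53.2 ± 4.21 normalized counts in DMSO at 7 days and 328 ± 29.7 in sorafenib. For Vim they were Anxa2 (0.997), the membrane-binding annexin A2, Ankrd50 (0.997) and Slc25a24 (0.996). For Fn1 they were Tead1 (0.999), the DNA-binding partner of YAP, Macf1 (0.997), a linker of microtubules and actin, and Sh3bp5 (0.997). Tead1 had 9704 ± 289 and 22018 ± 908 normalized counts in DMSO and sorafenib at 48 hours, and 17954 ± 381 and 19877 ± 500.0 at 7 days, the same shape as Fn1.

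Other genes of the transition were read in 6 lists of 135 genes in all, each by how many were called, beside the 26.9% higher and 27.7% lower of all tested genes at 48 hours and the 28.9% and 27.9% at 7 days. The lists were chosen with earlier results of these data known. They were not matched to all tested genes in expression level, so the shares beside them are a rough guide. Among junction and keratin genes, 6 of 29 tested rose and 11 fell at 48 hours, and 3 rose and 14 fell at 7 days, with a median log2 fold change of -0.0026 and -0.28. Krt7, a simple-epithelium keratin, fell by 1.93 ± 0.073 on the log2 scale at 48 hours and fell by 5.02 ± 0.086 at 7 days, from 3643 ± 128 to 111 ± 12.5 normalized counts (edgeR FDR 8.18e-15 and 4.74e-20). Dsg2, a desmosomal cadherin, fell by 1.62 at 7 days (edgeR FDR 1.03e-08). The 3 genes of the list that rose at 7 days, named here after their values were seen, were Cldn1, a claudin of tight junctions, by 2.85, and the desmosomal genes Pkp2 and Dsp, by 0.62 and 0.20 (edgeR FDR 3.46e-09, 9.83e-07 and 0.000688). Krt7 and Dsg2 lie in the stretch with lowered counts in sorafenib 48 hours replicate 2. Without that library Krt7 was lower by a log2 fold change of -1.87 at 48 hours, and 7 genes of the list were higher and 11 lower.

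Regulators of the epithelial state were split. Of 12 tested (of 17 listed), 4 rose and 3 fell at 48 hours and 6 rose and 3 fell at 7 days, with medians of 0.05 and 0.55. With a gene at 0 in one whole group set at the bound that 3 counts allow, the 48 hour median was -0.14. Klf4, a Krüppel-like factor of epithelia and stem cells, rose by 4.43 ± 0.084 on the log2 scale at 48 hours and 3.74 ± 0.069 at 7 days (edgeR FDR 3.2e-19 and 1.31e-19), and Foxa2, a hepatic pioneer factor, by 1.77 and 0.84 (edgeR FDR 1.46e-13 and 2.21e-09). Esrp2, the splicing regulator of epithelial isoforms, fell at both times, with log2 fold changes of -0.72 and -2.10 (edgeR FDR 1.27e-08 and 2.08e-15).

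Other EMT factors and their cofactors were called often, 13 of 23 higher and 6 lower at 48 hours and 12 higher and 10 lower at 7 days, with medians of 0.37 and 0.19. Prrx1, a homeobox factor of mesenchyme, rose by 1.31 ± 0.043 and 1.73 ± 0.044 (edgeR FDR 1.1e-15 and 1.79e-17). Klf8 rose by 1.92 and 2.28 (edgeR FDR 5.17e-09 and 8.55e-11) and Etv4, an ETS factor, by 1.85 and 0.79 (edgeR FDR 1.06e-16 and 1.68e-11).

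Mesenchymal cytoskeleton, adhesion and receptor genes were 17 of 24 higher and 5 lower at 48 hours and 16 higher and 6 lower at 7 days, with medians of 1.12 (0.98 with the gene at 0 set at its bound) and 0.65. The contractile genes Cnn1 and Tagln rose by 4.09 ± 0.092 and 3.89 ± 0.14 at 48 hours (edgeR FDR 3.07e-18 and 4.05e-15). At 7 days Cnn1 was higher by 1.88 (edgeR FDR 2.03e-14), and Tagln had 0.19 ± 0.11 (edgeR FDR 0.16). Cd44, the hyaluronan receptor, rose by 3.17 and 2.27 (edgeR FDR 4.12e-20 and 7.55e-19). Cdh11, a cadherin of mesenchymal cells, fell at both times, with log2 fold changes of -1.17 and -3.98 (edgeR FDR 2.12e-12 and 1.07e-19), from 3887 ± 96.9 to 248 ± 24.9 normalized counts at 7 days.

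Of the matrix genes, a list without Fn1 itself, 18 of 26 rose and 5 fell at 48 hours, with a median of 1.00, and at 7 days 12 rose and 10 fell, with a median of 0.09. The log2 fold change was lower at 7 days than at 48 hours for 23 of the 26 and higher for 0 (0 also at an unadjusted p under 0.05 and with DESeq2, and the 3 others were not called), where 21.3% of all tested genes had a lower one. Ccn2, a matricellular growth factor, rose by 5.97 ± 0.078 at 48 hours and 2.60 ± 0.063 at 7 days (edgeR FDR 1.97e-21 and 8.58e-18). The collagen VI chains Col6a1 and Col6a2 fell at both times. Their log2 fold changes were -1.76 and -2.04 at 48 hours (edgeR FDR 1.24e-16 and 9.08e-17) and -3.06 and -3.78 at 7 days (edgeR FDR 6.12e-20 and 3.64e-20).

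Genes of the TGF-beta input, a known inducer of EMT, were 8 of 14 higher and 3 lower at 48 hours and 5 higher and 4 lower at 7 days, with medians of 0.21 and 0.03. Tgfb1, a ligand listed beside Tgfb2 and Tgfb3, rose by 0.86 ± 0.054 and 0.64 ± 0.055 (edgeR FDR 2.92e-11 and 3.64e-09). The co-receptor Tgfbr3 fell at both times, with log2 fold changes of -1.46 and -2.06 (edgeR FDR 1.52e-12 and 1.17e-14), and Bambi, a decoy receptor of the pathway, did so with -0.82 and -1.74 (edgeR FDR 3.8e-07 and 7.69e-12). The log2 fold change was lower at 7 days than at 48 hours for 10 of the 14, among them Tgfbr3 and Bambi, which fell further, and higher for 2, beside 21.3% and 15.5% of all tested genes. Bambi and Klf8 lie in the stretch with lowered counts, and without sorafenib 48 hours replicate 2 their 48 hour values were -0.68 and 2.07. The 48 hour counts of genes higher and lower were then 4 and 2 for the epithelial regulators, 14 and 6 for the other EMT factors, 17 and 5 for the cytoskeleton, adhesion and receptor genes, 19 and 5 for the matrix and 10 and 3 for the TGF-beta input.

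**Figure D4:**
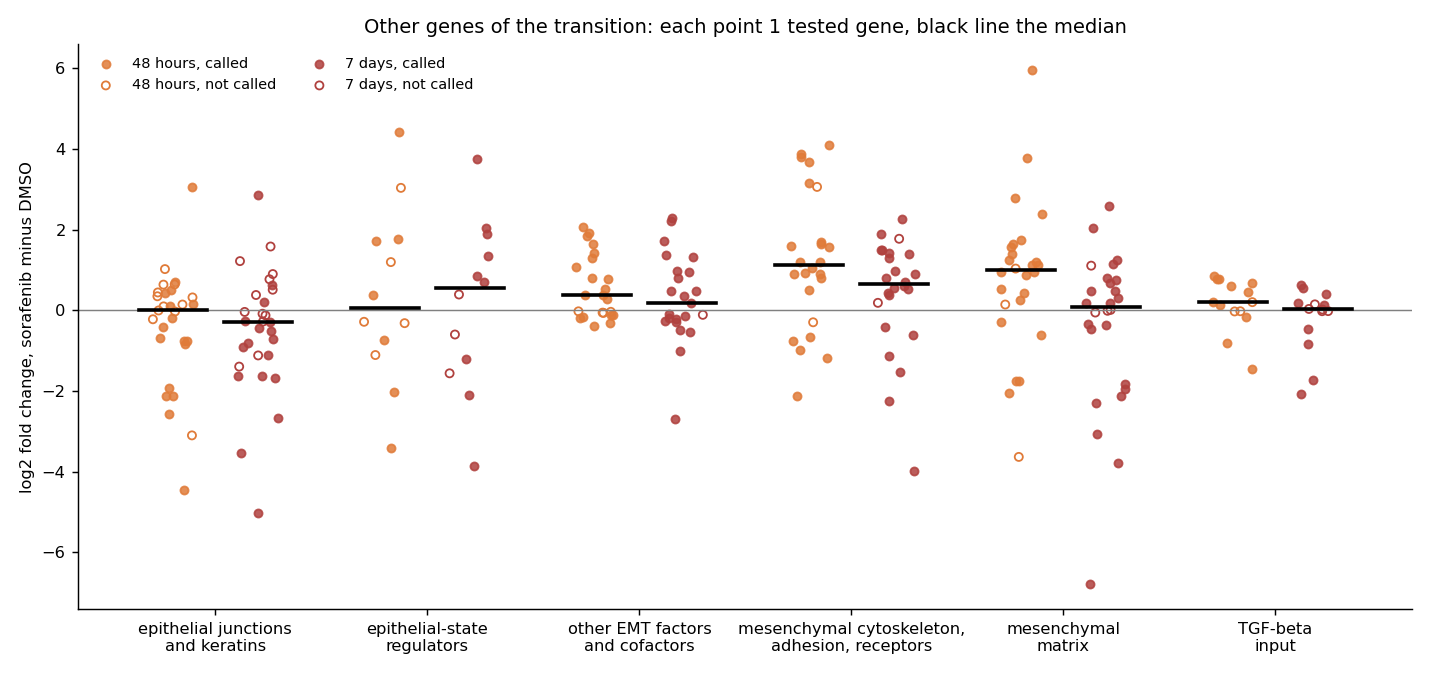
Log2 fold change of sorafenib against DMSO at 48 hours (orange) and 7 days (red) for each tested gene of the 6 lists, filled where called, with the list median as a black line. The medians of the mesenchymal cytoskeleton and matrix lists are 1.12 and 1.00 at 48 hours and 0.65 and 0.09 at 7 days, and that of the junction and keratin genes moves from -0.0026 to -0.28.

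Markers of cell types moved with the groups too. The summed normalized count of the 7 hepatoblast markers, of which 4 had a mean of at least 10, was 50202 to 51596 in DMSO and 18775 to 21858 in sorafenib at 48 hours, and 25053 to 27428 and 8335 to 8591 at 7 days. The sum of the 8 fibroblast or stellate cell markers, of which all but Lrat are also in the mesenchymal lists, was 117327 to 119183 and 125942 to 139355 at 48 hours, and 90382 to 95018 and 63595 to 65112 at 7 days. At 48 hours the mean of Col1a1 was 41939 normalized counts in DMSO and 81072 in sorafenib and that of Dcn 2134 and 2868, while the means of the other 5 detected genes were lower in sorafenib, with Col3a1 at 70779 and 46413 and Pdgfra at 1528 and 354. At 7 days Col1a1 alone had the higher mean in sorafenib (42221 and 52228). The 5 endothelial markers summed to 58.6 to 100.1 in DMSO and 124 to 160.3 in sorafenib at 48 hours, and to 42.2 to 71.6 and 205 to 236 at 7 days, without overlap at either time. Most of this sum was Kdr, a receptor of VEGF, with means of 48.5 and 122 at 48 hours and 31.3 and 197 at 7 days. Tek went the other way, with means of 18.1 and 6.15 at 48 hours and 13.5 and 6.97 at 7 days. Stab2 was higher in sorafenib (2.54 and 7.16, then 5.94 and 12.4), and Pecam1 was lower at 48 hours (4.73 and 1.66) and higher at 7 days (2.18 and 3.71). The 5 leukocyte markers summed to 76.6 to 89.0 and 62.8 to 89.8 at 48 hours, and to 125 to 157 and 75.2 to 86.9 at 7 days, where Csf1r had means of 69.7 and 13.8. The part of these markers in the EMT gene results was not tested, and in bulk RNA fewer cells of a type and less RNA per cell cannot be told apart.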

How the data were processed

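RNA of p53-/-; Myc hepatoblasts was measured by mRNA sequencing in 16 libraries (4 groups of 4), from 1000 ng of total RNA with the Illumina Stranded mRNA Prep kit. The authors aligned the reads to GRCm39 with STAR 2.7.1a, and the submitters' processing notes name featureCounts 2.0.6; the gene annotation and strand setting are not given in the sources used here. The deposited values are whole-number counts per gene, with no normalization by the authors.

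Genes with fewer than 10 counts in total were removed (20396 genes), as in the study's methods. The remaining 20444 were tested with edgeR 4.0.16 in R 4.3.3 (TMM scaling, quasi-likelihood test, 1 model of the 4 groups, no block), and called at a Benjamini-Hochberg FDR under 0.05. The contrasts were sorafenib against DMSO at each time, their difference (the interaction), and 7 days against 48 hours within DMSO and within sorafenib. The study used DESeq2, and DESeq2 1.42.0 was an alternative here, with other scalings, filters, a replicate block, fits on the 8 libraries compared and leaving out each library. An offset for the stretch with lowered counts in sorafenib 48 hours replicate 2 was chosen after seeing the data. Replicates were not duplicates (chi-square per gene 1.49 to 55.0 between pairs).

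The text names all 10 EMT genes, the 2 called genes per list and time with the largest absolute log2 fold change and a mean of at least 100 normalized counts, the 3 genes most like Cdh1, Vim and Fn1, and Trp53 and Myc; some genes that this rule names are not reported here. The genes and lists were chosen with earlier results of these data known. Levels between genes were compared per kilobase of annotated exon (GENCODE on GRCm39).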

Additional observations from a re-analysis of the deposited data

Results flagged for a closer look

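Of the 40 groups of 4 libraries checked for the 10 EMT genes, 6 had 1 library that stood apart from the others by Dixon's criterion, where chance flags about 5% of groups. The library of sorafenib 48 hours replicate 2 was the lowest of its group for Cdh2 (3904 normalized counts) and for Zeb1 (1335), and the highest for Fn1 (164484) and Ocln (1.51, a single count). In sorafenib at 7 days, 1 library was highest for Ocln (0.984, also a single count) and 1 was lowest for Zeb2 (2199.6). In both Ocln groups the other libraries had 0 counts, so any single count is flagged and the 5% does not apply to them.

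The effect of sorafenib differed between 48 hours and 7 days, by the interaction term of the edgeR model, for 6 of the 10 genes. Among all tested genes 36.8% had such an interaction (15.5% higher and 21.3% lower at 7 days). The log2 fold change at 7 days minus that at 48 hours was 1.09 for Cdh1 and 2.01 for Snai2. It was -0.15 for Vim, -1.21 for Fn1, -0.63 for Zeb2 and -0.37 for Twist1.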

How the results depend on the processing

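No result changed its direction while called under any alternative. With a further condition of 1 or more on the absolute log2 fold change, the called EMT genes were 5 at 48 hours (4 higher, 1 lower), 4 at 7 days (3 and 1), 3 for the interaction (2 and 1), and 2 for 7 days against 48 hours in DMSO and 2 in sorafenib (both higher in each). The share of all tested genes under this condition is not given here, so these counts cannot be read against a background. Leaving out each library in turn gave 8 to 9 called genes at 48 hours, 8 to 9 at 7 days, 6 to 7 for the interaction, 5 to 7 for time in DMSO and 7 to 9 for time in sorafenib. Over all tested genes the same fits called 10609 to 11608 at 48 hours, 10981 to 12590 at 7 days and 7073 to 8761 for the interaction. For time they called 9419 to 11242 in DMSO and 7355 to 9047 in sorafenib. Of the values for the 10 genes under all alternatives, 1153 kept their side of the threshold, 20 lost it and 11 gained it. Cdh1 at 48 hours was called without the filter (FDR 0.0323), with the replicate block and without sorafenib 48 hours replicate 3 (0.0288). Fitted on the 8 libraries of 48 hours alone, Cdh2 and Zeb1 were not called (FDR 0.0674 and 0.0542). The causes were not tested. Ocln had no value with a filter of at least 10 counts in every sample, and its depth limits any statement on size.

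The replicate numbers were not used as pairs in the main fit. Deviations of same-numbered libraries from their group means correlated between -0.18 and 0.13, above 0.1 in 2 of 16 pairs. Libraries with different numbers were not compared in this way, so the values do not decide whether the numbers mark pairs. With the replicate block, 9 of the EMT genes were called at 48 hours, 9 at 7 days, 6 for the interaction, 6 for time in DMSO and 8 for time in sorafenib. Of the 20444 tested genes, the same fit called 10644 at 48 hours, 11027 at 7 days and 6987 for the interaction. For time it called 9871 in DMSO and 7809 in sorafenib.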
